A study of Mus musculus with 3 samples.

Results

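The cytosolic ribosomal protein genes encode the protein part of the ribosome that translates nuclear-encoded messages. Their members were taken by symbol, as every gene that begins with Rpl or Rps followed by a digit plus Rplp0, Rplp1, Rplp2 and Rpsa, without pseudogene names ending in -ps and without the S6 kinase genes (Rps6k). The same 93 symbols met this rule in all 3 tables, among 22439 genes listed for mouse embryonic stem cells (mESC), 23371 for cardiac precursor cell cultures (CPCC) and 24229 for cardiac bodies (CB). Of these, 77 are the ribosomal protein genes described here, 46 of the large and 31 of the small subunit. A further 15 are paralogs or copies kept apart, and Rps19bp1 matches the letters but encodes a binding partner of Rps19, not a ribosomal protein. Among the genes that the letters of the rule miss are Fau, which encodes a fusion protein that releases a small-subunit protein, and Rack1, a scaffold protein of the small subunit.

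A ribosome holds 1 copy of nearly every ribosomal protein, and the stalk proteins Rplp1 and Rplp2 are the known exception. The genes lie on many chromosomes and are usually expressed in every cell at high level. Many of their messages begin with a C followed by a run of pyrimidines, the 5′ terminal oligopyrimidine (TOP) tract, through which mTOR and Larp1 control their translation. Mammalian genomes also carry many processed copies of these messages, most of them without a known product, and a few paralogs with expression in germ cells or muscle.

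The study profiled single cells of male F1 hybrid mice, C57BL/6J on the maternal and CAST/EiJ on the paternal side, along differentiation towards heart cells in culture. All cultures came from mESC clones that each grew from 1 cell. The mESC were kept in medium with inhibitors of 2 kinases and LIF, the CPCC came from dissociated embryoid bodies grown on with EGF and Fgf2 and taken at the fourth passage, and the CB were beating aggregates grown in ascorbic acid medium. Each culture is 1 sample in the labels, with 215 mESC in 3 pools of libraries, 175 CPCC in 2 pools and 232 CB in 3 pools. The labels do not say which clone or culture a pool holds, so pools and cells were not used as replicates, no test was run, and differences are given beside the values of the pools. The 3 pairs of cultures compared below share cultures and are not independent of each other.

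Summed counts were 351190067 in mESC, 275992310 in CPCC and 338221926 in CB, and the median cell held between 1397869 (CB) and 1528316 (mESC). No column name was shared between tables and no columns were identical. All 10 pluripotent markers were seen in 89.8% or more of the mESC and in 46.3% to 82.9% of the CPCC. Heart muscle genes were scarce in CB, where the actin gene Actc1 was detected in 15.1% of cells and the myosin gene Myh6 in 6.03%, and no CB cluster had a single one of the 12 heart muscle markers in at least 50% of its cells. The mESC and CB tables hold estimated counts, 89.5% of their nonzero member values not being whole, and the CPCC table holds whole counts only. The part of this difference in the results was not tested.

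The sequences of the members bear on their counts, because reads from stretches that a gene and its copy share letter for letter cannot be told apart. Copies at lower identity leave mismatches in many reads, and how reads were assigned was not tested. A search of the mouse transcripts found 1054 gene entries that match 1 of 79 ribosomal protein transcripts, those of the 77 genes and of genes the symbol rule misses, at 90% identity or more over at least 60% of the coding length, and 744 of them are listed in at least 1 table. The first 30 coding bases of Rps27, its copy Rps27rt and its paralog Rps27l show the contrast, with capitals where a base differs from Rps27.
Rps27: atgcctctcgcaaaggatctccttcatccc
Rps27rt: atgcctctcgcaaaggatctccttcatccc
Rps27l: atgccCctGgcTaGAgatctGTtAcaCccT
In GRCm38 with GENCODE annotation, Rps27 lies at chr3:90212522-90213651 (minus strand), Rps27rt at chr9:114982366-114982739 (minus strand) and Rps27l at chr9:66946086-66949516 (plus strand). All 252 coding bases of Rps27rt equal those of Rps27, whereas Rps27l differs at 60 of them.

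The X-linked genes Rpl10 and Rpl39 and their autosomal paralogs Rpl10l and Rpl39l differ more, as the first 30 coding bases show with capitals where the paralog differs.
Rpl10: atgggccgccgccccgcccggtgttaccgg
Rpl10l: atgggTcgTcgTccGgcTcgCtgttaccgg
Rpl39: atgtcttctcacaagactttccgaatcaag
Rpl39l: atgGcttctcacaagacCttcAgGatcaag
Rpl10l (chr12:66283379-66284401, minus strand) differs from Rpl10 (chrX:74270812-74273135, plus strand) at 98 of 642 coding bases. Rpl39l (chr16:10170226-10174911, plus strand) differs from Rpl39 (chrX:37082520-37085402, minus strand) at 23 of 153. Copies of the paralogs themselves were not searched for.

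The 77 genes held 2.89% of all counts in mESC, 2.05% in CPCC and 2.14% in CB. Counting error alone is small at this depth, with exact 95% Clopper-Pearson intervals of 2.884% to 2.888% in mESC, 2.045% to 2.049% in CPCC and 2.138% to 2.141% in CB. The pools varied far more. The mESC pools held 2.81%, 2.83% and 3.05%, the CPCC pools 2.47% and 1.65%, and the CB pools 1.69%, 2.76% and 1.77%. Every mESC pool was above every pool of the other cultures, by a narrow gap to the second CB pool, while CPCC and CB pools overlapped. The large subunit took 1.53%, 1.10% and 1.15% of counts in mESC, CPCC and CB, and the small subunit 1.36%, 0.952% and 0.991%, so that their ratio stayed between 1.12 and 1.16.

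More counts fell on the copies than on the genes. Near-identical copies, pseudogene rows included, held 4.31% of counts in mESC, 3.06% in CPCC and 3.25% in CB, which is 59.6%, 59.7% and 60.1% of the counts of genes and copies together. With the copies added, the sums over the 79 genes were 7.22%, 5.13% and 5.40%. The order of the cultures and the copy share were thus alike with and without the copies, but single genes were not alike. The own row of the median member held 35.8% of the counts of the gene and its copies in mESC, from 2.63% in Rpl5, a 5S RNA binding protein, to 100% in 3 members with no listed copy, Rpl8 and Rplp2 among them. The own row held under 10% for 11 members in mESC, and 8 members held 90% or more in their own row in every culture, among them Rpl22, Rpl32, Rpl39, Rpl4, Rpl8, Rplp2 and Rps3.

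**Figure D1:**
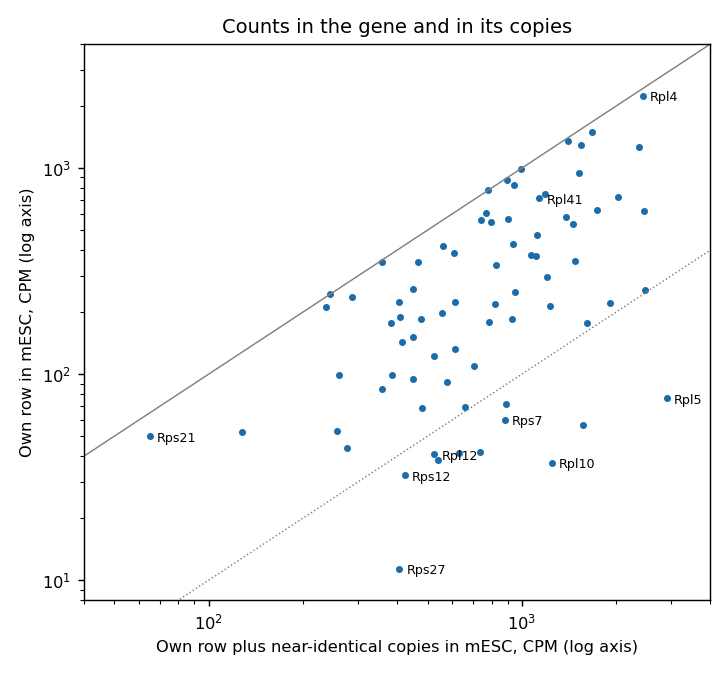
Each of the 77 points is a ribosomal protein gene in mESC, with the CPM of its own row (vertical, log axis) against the CPM of the own row plus its near-identical copies (horizontal, log axis). The solid line marks equal values and the dotted line an own row of 10% of the sum. Rpl4 lies near the solid line, and Rps27, Rpl5 and Rpl10 lie below the dotted line.

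Levels are given as CPM, the count of a gene scaled to the same fixed total in each culture or pool. They ranged over the members from 11.4 to 2241 in mESC. The range was 9.96 to 1653 in CPCC, and in CB it was 16.0 to 1359. Rpl4, a large-subunit protein, had the highest mean over the cultures. Its CPM was 2308, 2187 and 2241 in the mESC pools, 2038 and 1292 in the CPCC pools, and 1070, 1665 and 1203 in the CB pools. Rps3, Rps14 and Rplp0, the base of the stalk, were also among the 5 highest. The lowest means belonged to Rps27, Rps12, Rpl12, Rpl11 and Rpl36a. All of these low members have listed copies, and in mESC their own rows held 2.79% (Rps27) to 15.8% (Rpl36a) of the counts of gene and copies. Per kilobase of transcript, Rps14 and Rpl41, the smallest ribosomal protein, were among the 3 highest own rows with mean levels of 1806 and 1528 CPM per kb. With copies added, Rpl41 (2482 CPM per kb), Rps14 (2144) and Rps2 (2137) led and Rps21 (133) was lowest. These values divide by the length of 1 annotated transcript per gene and depend on that choice. The order of the own rows was nearly the same in each culture, with a Spearman rho over the 77 genes of 0.99 between CPCC and mESC, 0.98 between CB and mESC and 0.98 between CB and CPCC, a description over genes that share these libraries.

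From mESC to CPCC the question was whether leaving the pluripotent state goes with a different level of ribosomal protein messages. All 77 members were below their mESC level, with a median log2 ratio of CPM + 1 of −0.53 beside −0.09 over 12924 genes, those with a count in 25% of cells or more in either culture. Shares of all genes that pass a fold are over genes that reach this 25% in the culture where they are higher, here 12822. The members ran from −0.90 (Rpl12) to −0.14 (Rpl5), an SD of 0.18 over the members beside 1.09 over all genes. At least 1.5-fold lower were 26 of 77 beside 19.0% of all genes tested, and at least 1.5-fold higher were 0 of 77 beside 20.9%. In 54 of 77 every CPCC pool was below every mESC pool, beside 24.6% of all genes, and in 0 of 77 every CPCC pool was above, beside 20.6%. The second CPCC pool carries much of the size, since without it the median was −0.24 and 2 members passed 1.5-fold, and without the first pool it was −0.87 and 69 passed.

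The members with the lowest ratios in CPCC were Rpl12 and Rpl27a of the large and Rps29, Rps24 and Rps28 of the small subunit. Rps24, whose human counterpart is mutated in Diamond-Blackfan anaemia, is counted mostly in its own row (79.2% in mESC). It measured 492, 634 and 692 CPM in the mESC pools and 431 and 268 CPM in the CPCC pools, without overlap, a log2 ratio of −0.80. Rps29, a zinc-binding protein of the small subunit, measured 213, 240 and 256 CPM in mESC pools and 170 and 93.9 CPM in CPCC pools, again without overlap, a log2 ratio of −0.85. Among the 5 members closest to their mESC level were Rpl5, Rpl10, Rps27 and Rpl27, with log2 ratios of −0.14 to −0.18. Of these, Rpl5, Rpl10 and Rps27 have under 4% of the counts of gene and copies in the own row in mESC, and with copies added their log2 ratios were −0.56, −0.24 and −0.45. Rplp2, with no listed copy, measured 228, 223 and 288 CPM in mESC pools and 187 and 104 CPM in CPCC pools, a log2 ratio of −0.75 without overlap.

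In CB the median log2 ratio over mESC was −0.44 beside −0.015 over 12498 genes (11695 for the shares), and the members spread more widely, from −1.17 (Rps7) to 0.46 (Rps27), with an SD of 0.31 beside 1.58 over all genes. At least 1.5-fold lower were 18 of 77 beside 29.0% of all genes, so the share of members was below that of all genes, and at least 1.5-fold higher were 0 of 77 beside 29.4%. Every CB pool was below every mESC pool for 25 of 77, beside 27.4%, and above for Rps27 and Rpl10, 2 of 77 beside 27.0%. Without the second CB pool the median was −0.74 and 51 members passed 1.5-fold lower, and without the third it was −0.23 and 7 passed. TMM scaling moved the median of all genes to −0.15 and that of the members to −0.61, with 42 members at least 1.5-fold lower beside 34.3% of all genes, and the distance of the members from the median of all genes was −0.42 without and −0.46 with TMM. With DESeq2 size factors 45 members were lower, beside 36.2% of all genes lower and 24.3% higher.

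**Figure D2:**
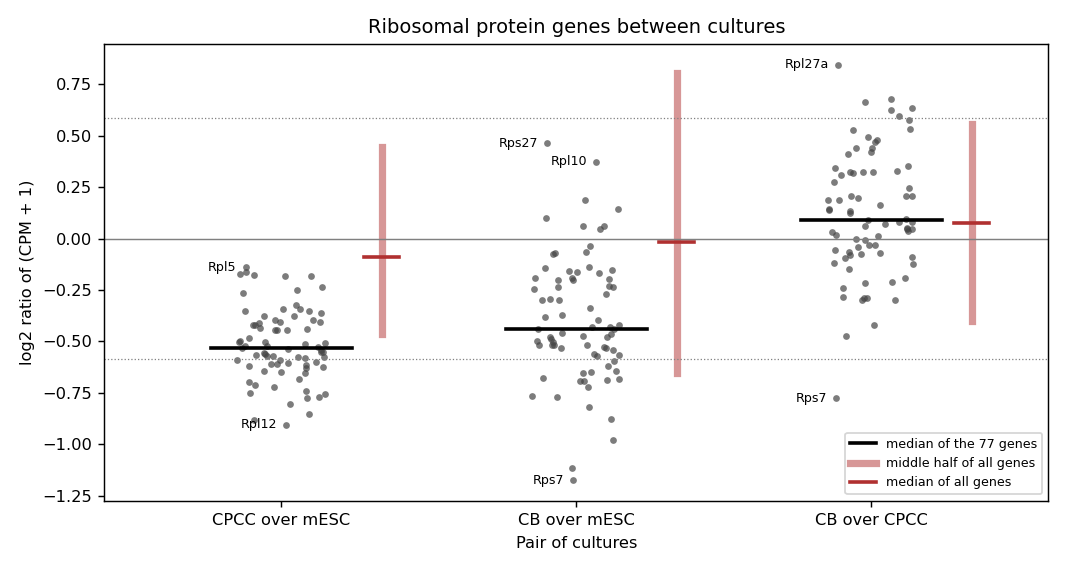
Each grey point is 1 of the 77 genes, with its log2 ratio of CPM + 1 (vertical) for each pair of cultures (horizontal), and the black line is their median (−0.53, −0.44 and 0.09). The red line and bar are the median and the middle 50% of all genes, and dotted lines mark 1.5-fold. Below the median of all genes lie 77 of 77 members for CPCC over mESC, 69 for CB over mESC and 36 for CB over CPCC.

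Rps7, which can bind Mdm2, had the lowest log2 ratio of CB over mESC in its own row, −1.17, with 61.1, 54.7 and 65.8 CPM in mESC pools and 20.4, 36.1 and 19.2 CPM in CB pools. Its own row held 6.81% of the counts of gene and copies in mESC and 3.90% in CB, and with copies added the log2 ratio was −0.40. Rpl12 and Rps12 were similar, at −0.98 and −0.82 in the own rows and −0.43 and −0.20 with copies. Rpl23a stood at −0.88 and −0.51. The low ratios of these members, whose own rows hold little of the counts in mESC (6.81% for Rps7), were thus closer to 0 with copies.

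At the other end, Rps27, which encodes a zinc-finger protein of the small subunit, measured 11.0, 11.3 and 11.8 CPM in mESC pools, 11.9 and 8.13 CPM in CPCC pools and 15.9, 17.4 and 14.8 CPM in CB pools. Its identical copy Rps27rt measured far more, 307, 464 and 392 CPM in mESC pools, 338 and 238 CPM in CPCC pools and 641, 569 and 728 CPM in CB pools. Both rows were above mESC and CPCC in every CB pool, with log2 ratios of 0.46 and 0.72 over mESC, and Rps27 with all its copies reached 0.72. Rpl10, which joins the large subunit late in its assembly, was at 0.37 in its own row, but at −0.13 with copies added. Rps19, the gene most often mutated in Diamond-Blackfan anaemia, had a log2 ratio of 0.10 with overlapping pools, and Rpl5 was at 0.19. With copies, 4 of 77 members changed sign in CB over mESC (Rpl5, Rpl10, Rpl10a and Rpl37).

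Between CB and CPCC the median log2 ratio was 0.09 beside 0.08 over 12399 genes (11428 for the shares), with 50 members above 0 and 27 below. At least 1.5-fold higher were 6 of 77 (Rpl27a, Rpl37a, Rpl37, Rps27, Rps28 and Rpl10a) beside 22.6% of all genes, and at least 1.5-fold lower was Rps7 alone, 1 of 77 beside 20.4%. In 6 of 77 every CB pool was above every CPCC pool, beside 19.1%, and in 0 of 77 every CB pool was below, beside 14.6%. The sign of this median changed under several alternatives. It was −0.013 when each cell counted equally, −0.22 without the second CB pool and −0.21 without the second CPCC pool. With TMM scaling it was −0.10, with 1 member higher and 3 lower beside 16.7% and 26.2% of all genes, whose median then was −0.08. Rpl27a, a protein of the large subunit, had the highest ratio, with 76.7 and 55.5 CPM in CPCC pools and 83.1, 156 and 99.9 CPM in CB pools, a log2 ratio of 0.84 (0.61 with copies). Rpl37 and Rpl37a, both with zinc-finger folds, were at 0.66 and 0.68 (0.60 and 0.66 with copies). Rps7, at −0.78 in its own row, was at 0.12 with copies added, and in this pair the sign changed with copies for 13 of 77 members.

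The 4 X-linked members, Rpl10, Rpl36a, Rpl39 and Rps4x, each have 1 active allele in male cells, as the other X-linked genes do. Rps4x measured 752, 557 and 638 CPM in mESC, CPCC and CB, and Rpl39 measured 352, 224 and 298 CPM. Rpl36a, mostly counted in copies, measured 43.6, 29.7 and 29.9 CPM and Rpl10 measured 37.2, 33.2 and 48.5 CPM. The log2 ratios of Rps4x and Rpl39 in CPCC over mESC, −0.43 and −0.65, lay within the range of the autosomal members. The genes that the symbol rule missed were below mESC too. Fau was at −0.52 in CPCC and −0.64 in CB over mESC, and Rack1 at −0.40 and −0.78. Rps19bp1, no ribosomal protein, was at −0.13 and −0.29.

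Nearly every cell contained nearly every message. Over the members, the median share of cells with at least 1 count was 96.7% for mESC, 97.1% for CPCC and 95.7% for CB, and in cells with at least 100000 counts all 77 were found in 181 of 203 mESC, 152 of 169 CPCC and 161 of 219 CB. After each cell was thinned to 430000 counts, which left out 22, 18 and 22 shallower cells, the median member was found in 100% of mESC, 99.4% of CPCC and 100% of CB. The least detected members after thinning were Rps27 in mESC (95.9%) and CPCC (85.4%) and Rpl12 in CB (79.5%). These are members with low own rows.

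Over single cells the levels of most members varied together. The Pearson correlation of a member's log2 CPM with the summed level of the other 76 had a median over members of 0.66 in mESC, 0.83 in CPCC and 0.67 in CB. These are descriptions over 203, 169 and 219 cells that share pools and depth. Among the closest followers were Rps19 and Rpl41 in mESC (0.87 and 0.85), Rpl8, Rpl26 and Rps10 in CPCC (0.96 to 0.95) and Rps14, Rpl35 and Rpl32 in CB (0.88 to 0.82). Rpl10 followed least in CPCC (0.22) and CB (0.25), and Rpl10a in mESC (0.24). Rps27 was among the least correlated members in CPCC (0.40) and CB (0.29), and Rpl12 and Rps28 in mESC (0.28 and 0.31).

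The share of a cell's counts in the 77 genes, in cells with at least 100000 counts, had a median of 2.74% in mESC, with the middle 50% of cells between 2.49% and 3.04%. The median was 2.30% for CPCC cells, between 1.54% and 2.73%, and 1.94% for CB cells, between 1.39% and 2.55%. The cells of CPCC and CB were thus more spread than those of mESC, with SDs over cells of 0.91, 0.85 and 0.60 percentage points for CPCC, CB and mESC. To see which cells were low, each culture was clustered without the member, paralog and -ps rows. The mESC clusters were alike, with medians of 2.71%, 2.73% and 2.78%, and followed the pools in part, since 82 of 86 cells of the first came from the first pool.

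In CPCC the clusters differed. The pluripotent-like cluster (66 cells, 10 of 10 pluripotent markers in at least 50% of cells, led by Nr0b1) had a median of 2.703%, close to the mESC. A cluster led by Fgf8 and Fgf5 (30 cells, 8 of 10 pluripotent markers) had 2.45%. A collagen-led cluster (55 cells, 2 of 10 pluripotent markers, Col1a1 and Col1a2 among its leading genes) had 1.57%. The macrophage-like cluster (14 cells, 10 of 10 macrophage and 2 of 10 pluripotent markers) had 0.825%. All 14 macrophage-like cells and 28 of the 30 cells of the Fgf8 cluster came from the second pool, so the first pool compares only the pluripotent-like and collagen-led cells. In the first pool the pluripotent-like cells were at 2.69% and the collagen-led cells at 1.67%, and in the second pool the values were 3.35% (9 cells) and 1.47% (36 cells), with 2.42% in the Fgf8 cluster and 0.825% in the macrophage-like cells. A cluster of 10 cells was led by mitochondrial genes, and the 4 of them with at least 100000 counts had a median of 57.7% mitochondrial counts. Against all mESC, the summed pluripotent-like CPCC cells had a median member ratio of −0.08 (log2) beside −0.05 over all genes, and the collagen-led cells −0.90 beside −0.20, with 77 of 77 members below mESC.

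In CB, cells of a cluster led by Car14 and Prtg (71 cells, 10 of 10 S and G2M phase genes in at least 50% of cells) had a median of 2.58%. Endothelial-like cells (20 cells, 10 of 10 markers, also 10 of 10 S and G2M phase genes) had 2.73%. Epithelial-like cells (43 cells, 10 of 10 markers) had 2.12%, a cluster led by Dlk1 with Acta2 and Tagln (36 cells, 10 of 10 fibroblast markers) 1.58%, and fibroblast-like cells (62 cells, 9 of 10 markers) 1.39%. Of the 10 S and G2M phase genes, the epithelial-like, Dlk1-led and fibroblast-like clusters had 1, 2 and 1 in at least 50% of cells. Pools bear on these values. Within the first pool the Car14-led, fibroblast-like, epithelial-like and Dlk1-led cells were close, at 1.64%, 1.52%, 1.55% and 1.59%. The endothelial-like cells all came from the second pool, which holds 0 epithelial-like cells and 0 of the Dlk1-led cluster. The Car14-led cells were at 2.74% in the second pool (50 cells), beside 14 cells in the first. In the third pool epithelial-like cells were at 2.17%, fibroblast-like cells at 1.37% and Dlk1-led cells at 1.49%, so that the last 2 were near their values in the first pool. The clusters of CB also changed when all near-identical copies were left out of the clustering, with an adjusted Rand index of 0.65 (0.92 in mESC and 0.97 in CPCC), and the medians then ran from 1.46% to 2.73%.

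**Figure D3:**
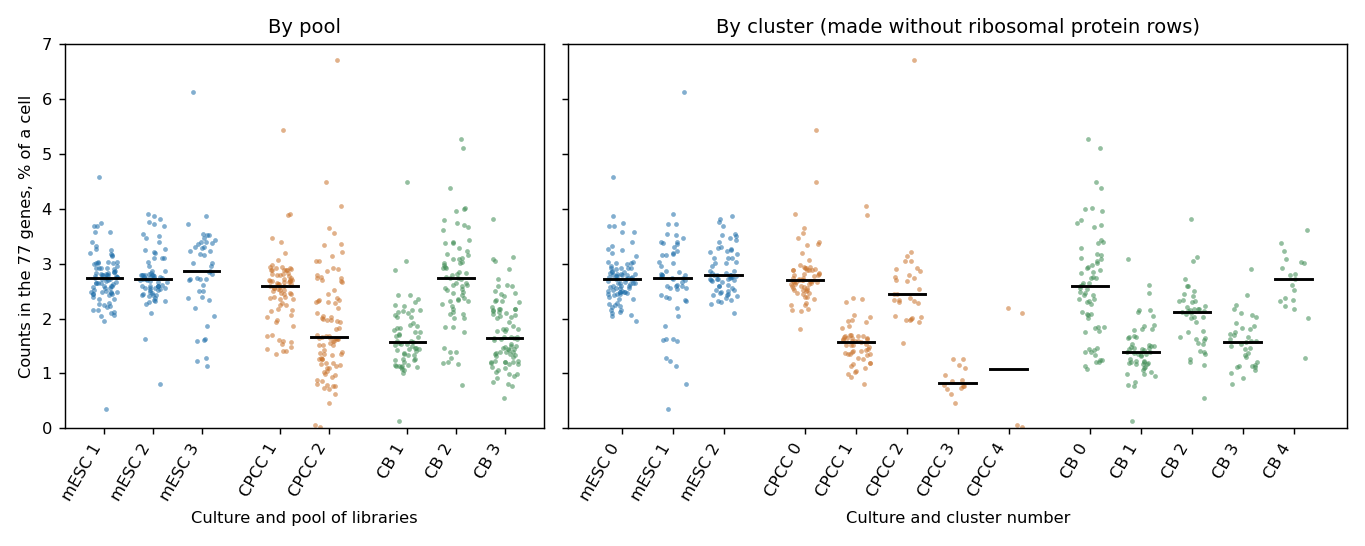
Each point is a cell with at least 100000 counts, with its share of counts in the 77 genes (vertical, %), by pool (left) and by cluster number (right). Black lines are medians, and the last CPCC cluster holds 4 such cells. The mESC clusters sit at 2.71% to 2.78%, while CPCC clusters range from 0.825% (cluster 3, macrophage-like) to 2.703% (cluster 0, pluripotent-like) and CB clusters from 1.39% (cluster 1) to 2.73% (cluster 4).

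Depth and mitochondrial counts moved with the share in part of the cultures. The Pearson correlation of the share with the log10 count of the cell was 0.36 over mESC, −0.19 over CPCC and 0.19 over CB. With the mitochondrial percent it was −0.58, −0.20 and −0.21, but Spearman's rho was −0.23, 0.02 and −0.07. The summed level of the 10 pluripotent markers went with the share in CPCC (0.73, and 0.69 and 0.68 by pool) and in mESC (0.63). In CB, where Pou5f1 and Dppa5a are not listed, the correlation was −0.027 over the other markers. These markers sum to 190 CPM in CB, of which Klf4 is 129 CPM. All 10 sum to 10537 CPM in mESC, of which Dppa5a is 7985 CPM. The S and G2M genes had correlations of 0.35 in mESC, 0.47 in CPCC and 0.34 in CB, where the pools by themselves gave 0.13, 0.26 and −0.0045. Spearman's rho for these genes was 0.039, 0.55 and 0.35, so the value in mESC did not hold by ranks. These are correlations over cells of 1 sample each, and their part in the differences between cultures was not tested.

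The 8 diverged paralogs were below their mESC level in CPCC, and 7 of them also in CB, where Rpl10l and Rpl39l were found in at most 2 cells. Rpl10l, a retrogene that stands in for X-linked Rpl10 in male meiosis, measured 104, 70.4 and 47.9 CPM in the mESC pools, 64.3 and 2.08 CPM in the CPCC pools, and 0.432 CPM in the second CB pool. It had no count in the other CB pools, where 3 counts would be 0.0481 and 0.0209 CPM. Cells with a count were 160 of 215 mESC, 62 of 175 CPCC and 2 of 232 CB. In mESC its CPM was above that of the own row of Rpl10 in every pool, but Rpl10 with its copies reached 1247 CPM. Within CPCC its level followed the clusters, at 86.5 CPM in 56 of 66 pluripotent-like cells, 1.69 CPM in 4 of 30 cells of the Fgf8 cluster and 0.0196 CPM in 2 of 55 collagen-led cells.

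Rpl39l, known from spermatogenic cells, went the same way. It measured 49.3, 36.7 and 33.4 CPM in mESC pools and 12.8 and 1.05 CPM in CPCC pools, without overlap, and 0.239 CPM over all CB, from 1 cell of 232. In CPCC it was found in 39 of 66 pluripotent-like cells (17.5 CPM), in 2 of 30 cells of the Fgf8 cluster and in 1 of 55 collagen-led cells. Rpl3l is known as the paralog of Rpl3 in heart and skeletal muscle. Here it was low throughout, with 3.08, 3.50 and 2.51 CPM in mESC pools, 2.32 and 0.0702 CPM in CPCC pools, and 0.449 and 0.689 CPM in the CB pools that had a count. Cells with a count were 34 of 215 mESC, 13 of 175 CPCC and 3 of 232 CB. Its log2 ratio of CB over CPCC was −0.68, but 0.34 without the first CPCC pool.

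Rps4l, annotated as a transcribed pseudogene of Rps4x, was abundant in mESC, with 1123, 825 and 1089 CPM in the pools. It measured 650 and 150 CPM in CPCC pools and 79.6, 119 and 40.5 CPM in CB pools, and no pools of different cultures overlapped. It was found in 97.2% of mESC, 86.9% of CPCC and 56.9% of CB, and its log2 ratio of CB over mESC was −3.65 beside −0.24 for Rps4x. Rpl7l1, a homologue of Rpl7, had 480, 373 and 380 CPM in mESC pools, 483 and 201 CPM in CPCC pools and 127, 160 and 105 CPM in CB pools. Its CB values were below all others, a log2 ratio of −1.64 over mESC beside −0.53 for Rpl7.

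Rps27l, a target of p53, had a log2 ratio of CB over mESC of −0.94 without overlap of pools (524, 711 and 676 CPM against 354, 336 and 325 CPM), the opposite sign of Rps27 and Rps27rt. Rpl36al, the autosomal partner of Rpl36a, was at −1.04, also without overlap. Rpl22l1, the paralog of Rpl22 that Rpl22 is known to restrain, was the exception, with 107, 163 and 159 CPM in mESC pools, 121 and 81.9 CPM in CPCC pools and 154, 159 and 163 CPM in CB pools. Its log2 ratio of CB over mESC was 0.15 with overlap, and over CPCC it was 0.66 without overlap. In all, 7 of 8 paralogs were at least 1.5-fold lower in CB than in mESC, against 18 of 77 members and 29.0% of all genes, and 4 of 8 in CPCC, against 26 of 77 and 19.0%. Both paralog counts include Rpl3l, which was found in fewer mESC than the 25% of cells required for the shares of all genes.

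**Figure D4:**
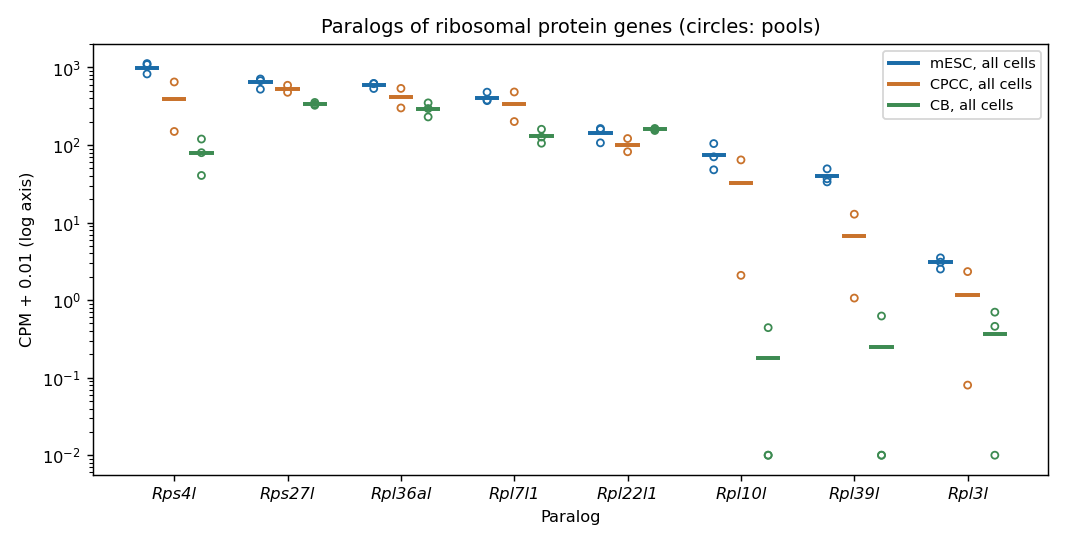
CPM + 0.01 (vertical, log axis) of the 8 diverged paralogs (horizontal) in mESC, CPCC and CB, with a bar for all cells of a culture and a circle for each pool. Pools without a count sit at 0.01. The CB bars of Rpl10l, Rpl39l and Rpl3l are the lowest of the 8 paralogs, and that of Rpl22l1 lies above its CPCC bar.

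Other genes of the same process were followed by lists. Ribosome biogenesis genes make and assemble ribosomes in the nucleolus. They had a median log2 ratio of −0.25 in CPCC over mESC, with 2 of 36 at least 1.5-fold lower beside 19.0% of all genes, and −1.21 in CB over mESC, with 33 of 36 lower beside 29.0%. Nucleophosmin (Npm1) measured 2247, 1366 and 903 CPM in mESC, CPCC and CB, nucleolin (Ncl) 1779, 1391 and 659 CPM, and the pre-rRNA processing factor Rrp9 98.0, 75.2 and 16.8 CPM. The list thus stood lower in CB than in CPCC (median −1.02), where the ribosomal protein genes stood at 0.09.

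Translation factors had medians of −0.22 in CPCC and −0.54 in CB over mESC, with 2 of 33 and 16 of 33 at least 1.5-fold lower, beside the same 19.0% and 29.0% of all genes. Eef1a1, which brings tRNA to the ribosome and has a TOP message, was at 4468, 3749 and 4852 CPM, a log2 ratio of 0.12 in CB over mESC, and the initiation factor gene Eif2s1 was at 778, 736 and 281 CPM, a ratio of −1.46. The mitochondrial ribosomal protein genes, whose products build the separate ribosome of the mitochondrion, had medians of −0.30 and −0.68, with 11 of 78 and 47 of 78 at least 1.5-fold lower, again beside 19.0% and 29.0%. The 15 regulators had medians near 0 (−0.04 and 0.01) with members on both sides. Myc, a driver of ribosome production, measured 3.74 CPM in mESC, 58.5 in CPCC and 20.3 in CB, Mycn 86.3, 99.5 and 40.7 CPM, and the translation repressor gene Eif4ebp1 965, 643 and 224 CPM.

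**Figure D5:**
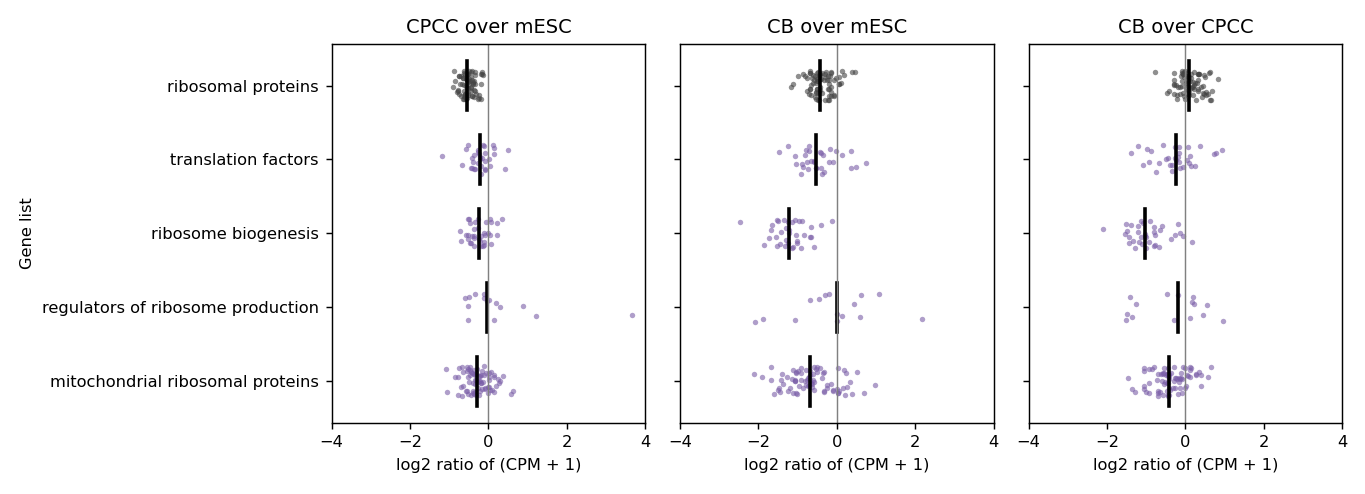
Log2 ratios of CPM + 1 (horizontal) for the 77 ribosomal protein genes and for 4 lists of related genes (vertical), 1 panel per pair of cultures, with a black line at each median. In CB over mESC the ribosome biogenesis genes have a median of −1.21 and the ribosomal protein genes −0.44.

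A sequence feature that the rule did not use was more frequent among the members than among all genes, though most members lacked the TOP-like tract. RefSeq start sites (GRCm38.p6) were matched for 57 of the 77 genes, and 13 of them (22.8%) had an annotated start at a C followed by at least 4 more bases of C or T on the sense strand, beside 3.01% of 27025 genes with an entry. A run of 8 bases of C or T within 20 bases of the start on either side was present in 28 of 57 (49.1%) beside 18.4%. The windows below run from 15 bases before the annotated start to 15 from it, with the pyrimidine run from the first transcribed base in capitals.
Rps6 (chr4:86857353-86857382, minus strand): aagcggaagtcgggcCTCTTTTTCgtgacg
Rps10 (chr17:27635230-27635259, minus strand): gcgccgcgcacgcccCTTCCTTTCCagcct
Rplp2 (chr7:141447636-141447665, plus strand): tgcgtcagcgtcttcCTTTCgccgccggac
Rps27 (chr3:90213634-90213663, minus strand): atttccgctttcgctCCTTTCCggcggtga
Rps27rt (chr9:114982725-114982754, minus strand): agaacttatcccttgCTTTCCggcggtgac
Rpl4 (chr9:64173372-64173401, plus strand): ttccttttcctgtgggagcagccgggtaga
The set shows tracts of different length, the shared tract of Rps27 and its copy Rps27rt, and Rpl4, whose pyrimidines end before the annotated start. A match describes letters in the window at an annotated start and says nothing of the start used in these cells. None of the 7 diverged paralogs with an entry had such a tract, beside 1 of 25 translation factor genes and 0 of 69 mitochondrial ribosomal protein genes. The run of 8 was present in 2 of 7 paralogs, 6 of 25 translation factor genes and 13 of 69 mitochondrial ribosomal protein genes.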

How the data were processed

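Single cells were captured on the Fluidigm C1 system and the libraries sequenced by the submitters, who aligned the reads to mm10 with STAR 2.7 according to their processing notes. The counting model and its treatment of strand and of reads with several matches are not given in the sources used here. The authors deposited estimated counts per gene and cell for mESC and CB, and whole counts for CPCC. For CPCC, 208 rows without a symbol and 23 symbols turned into dates, with 0.139% of counts, and 2 empty columns were left out. A value was called whole within 0.01.

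Counts were summed per culture and given as CPM, and log2 ratios used a pseudocount of 1 CPM. With 1 sample per culture, a gene was called by a 1.5-fold ratio, beside all genes with a count in 25% of cells or more in the culture where the gene was higher, while medians over all genes took those reaching 25% in either culture. Intervals of 95% (Clopper-Pearson) and floors of 3 counts cover counting error only. Cells were clustered with Seurat 5.3.0 (10 principal components, resolution 0.6, estimated counts rounded) without member, paralog and -ps rows. No doublet caller was run, since the study inspected capture chambers by microscope. Copies were found with BLAST 2.17.0 among GENCODE transcripts. Alternatives used edgeR 4.0.16, DESeq2 1.42.0 and other cells, pools and totals. Named genes were the 5 highest and 5 lowest ratios of each pair, the 5 highest and 5 lowest levels, X-linked members, paralogs, and the 3 members most and least correlated with the rest. The members and lists were chosen with earlier results of these data known, and the search for copies after the files were seen. Some of the genes named by the rule above are not reported here.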

Additional observations from a re-analysis of the deposited data

How the results depend on the processing

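The share of counts in the 77 genes was 2.77%, 2.15% and 2.06% in mESC, CPCC and CB when each cell counted equally, 2.92%, 2.07% and 2.15% in cells with at least 100000 counts and at most 25% mitochondrial, and 3.04%, 2.15% and 2.27% without mitochondrial genes in the total. Adding -ps rows gave 4.93%, 3.51% and 3.68%, and adding all near-identical copies, an alternative chosen after seeing the data, 7.10%, 5.03% and 5.31%. Leaving out pools moved it between 2.82% and 2.92% in mESC, 1.65% and 2.47% in CPCC and 1.74% and 2.41% in CB. The median share per cell was 6.77%, 5.69% and 4.99% with copies, and 2.90% in mESC without mitochondrial genes. The median share of cells with a transcript was 100%, 99.4% and 100% after thinning and 100% in each culture in the filtered cells.

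The median log2 ratio of CPCC over mESC was −0.41 with equal cell weight and −0.87 to −0.24 without single pools. That of CB over mESC was −0.61 with TMM, −0.67 with DESeq2 size factors and −0.74 to −0.23 without single pools. That of CB over CPCC turned to −0.013 with equal weight, −0.10 with TMM and −0.11 with DESeq2. Over the 8 members with 90% or more of the counts of gene and copies in their own row it was −0.039. Without single pools it ran from −0.22 to 0.46, at −0.22 without CB pool 2 and −0.21 without CPCC pool 2. The cause was not tested. With equal weight 9 members were 1.5-fold lower in CPCC than in mESC, with a pseudocount of 10 CPM 16, without single pools 2 to 69, and 0 passed 2-fold. In CB over mESC 42 (TMM), 45 (DESeq2) and 7 to 51 (single pools) were lower, 2 passed 2-fold, and with copies 1 was higher. In CB over CPCC 2 were lower with equal weight, 0 with copies, 3 with TMM, 3 with DESeq2, 0 to 7 without single pools and 0 at 2-fold, and 1 was higher with TMM, 1 with DESeq2, 3 with 10 CPM, 1 to 23 without single pools and 0 at 2-fold. Of 726 gene-level alternatives 684 stayed within 1.5-fold, and 2 of the others turned a called sign, Rps7 in CB over CPCC with copies (0.12) and Rpl3l without CPCC pool 1 (0.34, and −1.30 without CPCC pool 2). No paired analysis was possible because each culture is 1 sample. The own row held under 50% of the counts of gene and copies for 51 of 77 members, and how reads were assigned between them was not tested.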
